A study of Danio rerio with 6 samples.

Results

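The genes described here code for subunits of the nuclear RNA polymerases I, II and III, in pools of whole zebrafish (Danio rerio) embryos with and without a working bcas2 gene. They are the genes whose symbol in the deposited table begins with polr1, polr2 or polr3 followed by a letter, and whose counts sum to 15 or more over the libraries. All 29 symbols that match this pattern passed the count rule, out of 32520 genes in all, and all 29 were among the 22347 genes tested. The smallest total was 105 counts, for polr3g, and the next smallest was 641, so no gene lay close to the rule on either side. The tested embryos were bcas2-KO, knocked out for bcas2, whose product works in the spliceosome as part of the Prp19 complex, and were set against WT embryos, both at 3 days post fertilization. RNA sequencing was done on 3 pools of bcas2-KO embryos and 3 pools of WT embryos, with 10 genotyped embryos in each pool and no other allele or treatment named. The labels call the pools biological replicates and do not name their clutches, so p-values measure the spread between these pools.

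RNA polymerase I makes the large ribosomal RNA precursor in the nucleolus, RNA polymerase II makes messenger RNA and most spliceosomal snRNAs, and RNA polymerase III makes transfer RNA, the small ribosomal RNA of the large ribosomal subunit and U6 snRNA. Each enzyme is built on a pair of large subunits that form the active centre, with an assembly heterodimer, a stalk and a set of small subunits common to all of them. Polymerases I and III also carry built-in relatives of the initiation factors that polymerase II recruits from outside.

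The libraries held 32822716 to 40462653 counts in bcas2-KO pools and 35560010 to 49526995 counts in WT pools. The level of bcas2 was 3.71 ± 0.715 CPM in bcas2-KO and 28.2 ± 1.06 CPM in WT (SD, n = 3 pools each), where CPM is the count scaled to a common library size. Of the lens markers, 0 of 8 tested passed the test with edgeR or at an unadjusted p under 0.05, but their summed level was 359 CPM in bcas2-KO library 3 and 489 CPM in WT library 1, against 2.65 to 7.39 CPM in the other 4 libraries. Up to 7 of the 20 lens markers had no count in a library among those 4, and every lens marker was counted in the other pair. Of all tested genes, 9.01% fell. Of the skin markers 6 of 8 fell, with a summed level of 16921 to 20986 CPM in bcas2-KO and 23555 to 26157 CPM in WT, and of the red blood cell markers 4 of 8 fell, at 541 to 800 CPM in bcas2-KO and 870 to 1290 CPM in WT. The red blood cell markers hbbe3 and slc4a1a had a higher mean in bcas2-KO and did not pass. The genotypes overlapped for hbbe3. They did not overlap for slc4a1a, at 49.9 ± 2.47 CPM in bcas2-KO and 40.5 ± 7.71 CPM in WT (unadjusted p = 0.0427, edgeR). Of the neuron markers 1 of 8 fell (688 to 785 CPM in bcas2-KO, 724 to 853 CPM in WT), near the share of all tested genes, and of the muscle markers 2 of 10 fell (112608 to 129223 CPM in bcas2-KO, 115388 to 141586 CPM in WT). The part of these shifts in the results below was not tested. In pooled embryos, fewer cells of a type and less RNA per cell cannot be told apart.

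Levels of different genes were compared in FPKM, the deposited values scaled by gene length and library size. The largest subunit of polymerase II, polr2a, had 33.4 ± 4.94 FPKM in bcas2-KO and 36.8 ± 2.401 FPKM in WT. The largest subunit of polymerase I, polr1a, had 9.34 ± 0.853 FPKM in bcas2-KO and 7.04 ± 1.06 FPKM in WT, and that of polymerase III, polr3a, had 7.93 ± 0.361 FPKM in bcas2-KO and 8.48 ± 0.393 FPKM in WT. The transcript of the polymerase II enzyme was therefore the most abundant of these in every library, while polr1a lay above polr3a in each bcas2-KO library and below it in each WT library. In bcas2-KO library 2 the values nearly tied, at 8.38 FPKM for polr1a and 8.31 FPKM for polr3a.

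The highest level of all subunits was that of polr2d, a stalk subunit of polymerase II, at 69.5 ± 5.31 FPKM in bcas2-KO and 57.7 ± 2.03 FPKM in WT. It was followed in WT by polr2l (40.8 to 48.9 FPKM), polr2b (39.4 to 42.5 FPKM), polr2eb (39.3 to 40.3 FPKM) and polr2f (38.0 to 40.0 FPKM), whose ranges over the WT libraries overlap from one to the next. In bcas2-KO the gene that ranked next after polr2d was polr2eb, at 60.7 ± 4.90 FPKM. The polymerase III gene polr3e ranked 5 in bcas2-KO at 42.2 ± 2.91 FPKM and 10 in WT at 24.6 ± 0.325 FPKM. The lowest levels in both genotypes were those of polr3g, polr2h (4.35 ± 0.234 FPKM in bcas2-KO and 3.70 ± 0.472 FPKM in WT) and polr2m (4.84 ± 0.198 FPKM in bcas2-KO and 5.10 ± 0.146 FPKM in WT). Subunits that sit in the same enzyme thus spanned more than a factor of 10 in transcript level per length, which depends on the gene models used for the lengths.

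**Figure D1:**
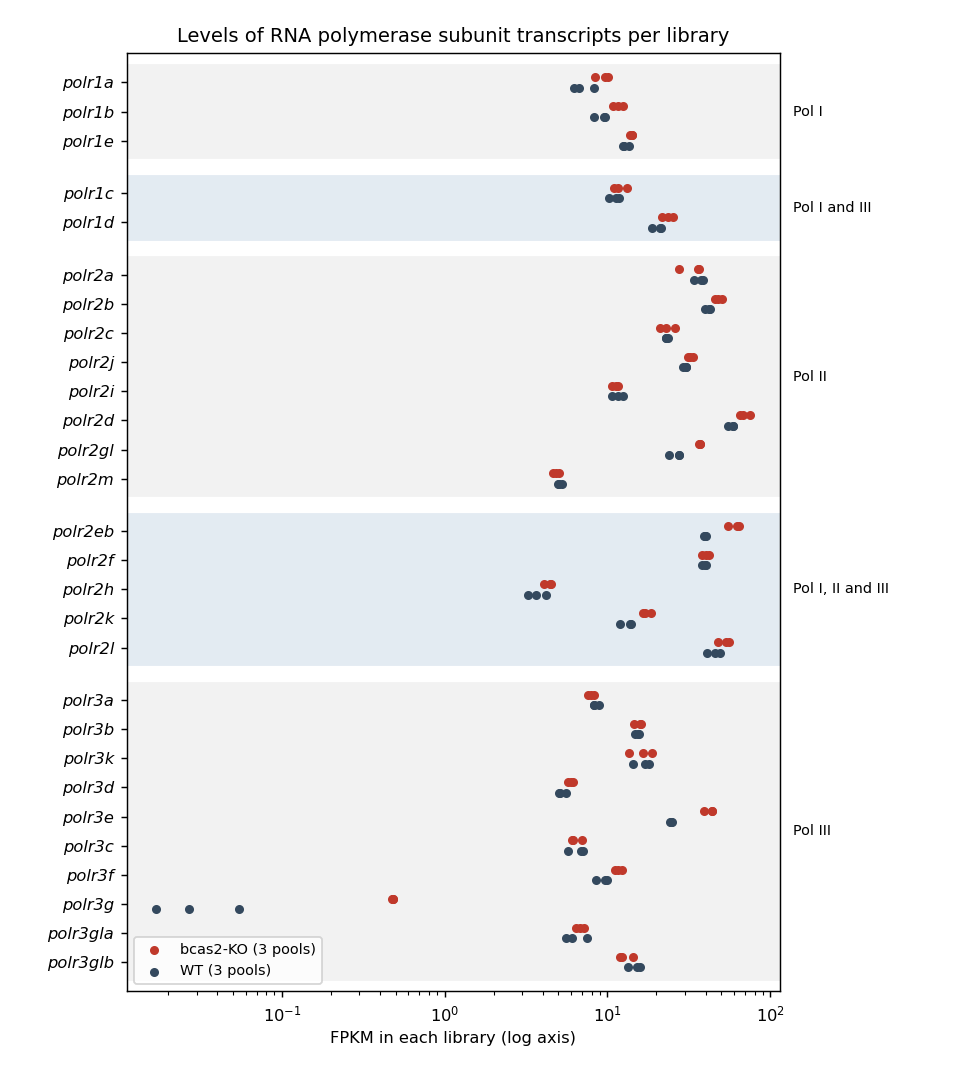
FPKM of each subunit gene named in the text (log axis) in each library, with bcas2-KO pools in red above WT pools in dark blue, grouped by the polymerase that holds the subunit. Most genes lie between 3.27 and 75.4 FPKM in every library, while polr3g lies at 0.476 to 0.484 FPKM in bcas2-KO and 0.017 to 0.055 FPKM in WT.

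Of the 29 subunit genes, 6 rose in bcas2-KO, 0 fell and 23 did not pass the test (edgeR quasi-likelihood test, Benjamini-Hochberg adjusted p under 0.05 over all tested genes). That is 20.7% higher, against 10.6% of all tested genes higher and 9.01% lower (19.6% in either direction). The gene polr3g passed the filter on low counts only through the bcas2-KO libraries, where it is high, and without it 5 of 28 were higher (17.9%). With DESeq2, 7 of the 29 were higher and 0 lower, against 11.5% and 10.2% of all genes. At an unadjusted p under 0.05, 10 were higher and 0 lower, against 17.5% and 16.9%. All 3 bcas2-KO values lay above all 3 WT values in 14 of the 29 genes and below them in 0, against 20.1% and 19.4% of all tested genes. The median log2 fold change, bcas2-KO over WT, was 0.14 over the 29 genes and -0.018 over all tested genes. With the 4 libraries low in lens transcripts, 5 of the 29 were called higher and 0 lower, against 9.14% and 7.14% of all genes tested there. Without polr3g, 9 of 28 were higher at an unadjusted p under 0.05. All bcas2-KO values lay above all WT values in 13 of those 28. The counts with DESeq2 and with the 4 libraries include polr3g.

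The genes that rose were spread over the enzymes. They were polr1a and polr1b of polymerase I, polr2gl of polymerase II, polr2eb of all 3 enzymes, and polr3e and polr3g of polymerase III. In each of these the genotypes did not overlap.

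**Figure D2:**
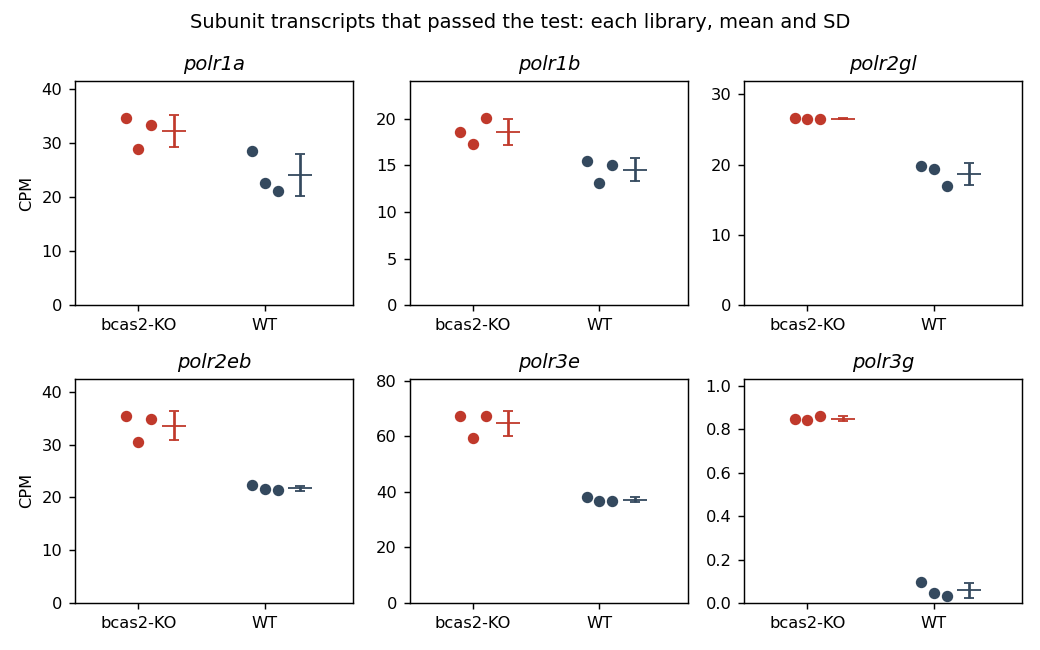
CPM of the 6 subunit genes that passed the test in each of 3 bcas2-KO pools (red) and 3 WT pools (dark blue), with the mean and SD at the right of each group. The vertical axis starts at 0, and every bcas2-KO pool lies above every WT pool in each panel, from less than 1 CPM for polr3g to 67.3 CPM for polr3e.

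In polymerase I, the genes of both large subunits rose. The largest subunit polr1a (ENSDARG00000098375) had 34.5, 28.9 and 33.3 CPM in the bcas2-KO libraries, against 28.4, 22.7 and 21.1 CPM in the WT libraries. The lowest bcas2-KO value and the highest WT value lay close together. The difference was 1.34-fold (log2 fold change 0.42 with a standard error, SE, of 0.12, adjusted p = 0.0402, edgeR). The second-largest subunit polr1b (ENSDARG00000077469) had 18.5, 17.3 and 20.0 CPM in the bcas2-KO libraries, against 15.5, 13.1 and 15.02 CPM in the WT libraries. It was 1.28-fold higher (log2 fold change 0.35, SE 0.10, adjusted p = 0.0374, edgeR).

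These calls were near the threshold. With edgeR, the call of polr1a was lost without bcas2-KO library 1 (adjusted p = 0.136), bcas2-KO library 3 (0.112), WT library 2 (0.145) or WT library 3 (0.105), and with upper-quartile scaling (0.0676) or library totals (0.0629). That of polr1b was lost without the same libraries (0.0979, 0.124, 0.147 and 0.0617), in the 4 libraries low in lens transcripts (0.0824) and with upper-quartile scaling (0.0682). Both calls were also lost with limma on log2(FPKM + 0.1), at adjusted p = 0.0693 for polr1a and 0.0549 for polr1b.

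The third gene of polymerase I that the pattern takes is polr1e, for a part of the heterodimer related to the initiation factor TFIIF. It had 12.2, 12.3 and 12.03 CPM in the bcas2-KO libraries and 11.7, 10.8 and 10.6 CPM in the WT libraries, with no overlap, and did not pass (log2 fold change 0.14, adjusted p = 0.317, edgeR). Other polymerase I subunits carry older symbols in the files, so the pattern does not take them. They are cd3eap, the partner of polr1e, twistnb of the stalk and the zinc ribbon gene znrd1, and their log2 fold changes were 0.38, 0.078 and 0.31 (adjusted p = 0.132, 0.635 and 0.411, edgeR). With these, all 6 genes of polymerase I had a log2 fold change above 0, with a median of 0.33. Of all 22347 tested genes, 10688 lay above 0. Of the 6, 2 passed (33.3%, against 10.6% of all tested genes higher).

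The assembly heterodimer that polymerases I and III share is coded by polr1c and polr1d. Neither gene passed, at 8.76 ± 0.824 CPM in bcas2-KO and 8.05 ± 0.473 CPM in WT for polr1c (log2 fold change 0.12, 95% interval -0.13 to 0.38), and at 7.15 ± 0.598 CPM in bcas2-KO and 6.12 ± 0.473 CPM in WT for polr1d (log2 fold change 0.22, -0.05 to 0.49). The genotypes overlapped for polr1c and did not overlap for polr1d.

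In polymerase II, 1 of 8 specific genes passed (12.5%, near the 10.6% of all tested genes that were higher). These 8 and their median include polr2m, which the pattern takes but which codes for an associated regulator. The genes of the large subunits had log2 fold changes of opposite sign. The largest subunit polr2a (ENSDARG00000099966), which carries the repeated tail that is phosphorylated during transcription, had 135, 134 and 104 CPM in the bcas2-KO libraries, against 144, 138 and 125 CPM in the WT libraries. Its lowest value was in bcas2-KO library 3, and the genotypes overlapped (log2 fold change -0.12, 95% interval -0.37 to 0.12, adjusted p = 0.470, edgeR). In the 4 libraries low in lens transcripts, which leave out that library and WT library 1, its log2 fold change was 0.047. The second-largest subunit polr2b (ENSDARG00000098783) had 160, 145 and 152 CPM in the bcas2-KO libraries, against 125, 132 and 131 CPM in the WT libraries. The genotypes did not overlap, and the adjusted p missed the threshold at 0.0511 (log2 fold change 0.23, SE 0.073, edgeR), while it was under it with DESeq2 (0.0304), RLE scaling (0.0487) and library totals (0.0482). Under the other 12 alternatives polr2b did not pass, with the highest adjusted p at 0.155 without bcas2-KO library 1 (edgeR).

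The stalk of polymerase II is a heterodimer of polr2d and polr2gl, for which the RefSeq table gives the current symbol polr2g. The gene polr2gl (ENSDARG00000056127) had 26.6, 26.5 and 26.5 CPM in the bcas2-KO libraries, against 19.8, 19.4 and 16.9 CPM in the WT libraries. It was 1.42-fold higher (log2 fold change 0.50, SE 0.090, adjusted p = 0.00547, edgeR) and was called under all 15 alternatives. Its partner polr2d had 18.1, 19.0 and 21.1 CPM in the bcas2-KO libraries, against 16.4, 15.2 and 16.2 CPM in the WT libraries. The genotypes did not overlap for polr2d, which did not pass (log2 fold change 0.28 with an SE of 0.094, adjusted p = 0.0599, edgeR).

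The remaining genes of polymerase II did not pass. The assembly heterodimer genes polr2c and polr2j had log2 fold changes of 0.029 (95% interval -0.20 to 0.25) and 0.13 (-0.09 to 0.35). The genotypes overlapped for polr2c and did not overlap for polr2j, where bcas2-KO lay above WT. The zinc ribbon gene polr2i had -0.033 (-0.29 to 0.22). The gene polr2m, for a factor that binds the assembled enzyme and keeps TFIIF away from it, had -0.057 (-0.31 to 0.19). Its values were 5.92 ± 0.219 CPM in bcas2-KO and 6.17 ± 0.156 CPM in WT.

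Of the 5 subunits common to the 3 polymerases, 1 passed (20.0%, against 10.6% of all tested genes higher). All 5 had a log2 fold change above 0, as did 10688 of the 22347 tested genes. The gene polr2eb (ENSDARG00000026183), for the subunit that grips the DNA downstream of the active centre, had 35.4, 30.4 and 34.9 CPM in the bcas2-KO libraries, against 22.3, 21.7 and 21.4 CPM in the WT libraries. It was 1.54-fold higher (log2 fold change 0.62, SE 0.088, adjusted p = 0.00185, edgeR) and was called under all 15 alternatives. A row named POLR2E in capitals, which the pattern does not take, held only 8 counts over the 6 libraries. The other common subunits did not pass. The gene polr2k had 3.03 ± 0.179 CPM in bcas2-KO and 2.29 ± 0.202 CPM in WT without overlap (log2 fold change 0.40, adjusted p = 0.113, edgeR). The genes polr2h and polr2l had log2 fold changes of 0.24 and 0.23 (adjusted p = 0.195 and 0.175, edgeR), with overlap. The gene polr2f had 24.3 ± 1.148 CPM in bcas2-KO and 23.5 ± 0.711 CPM in WT (log2 fold change 0.049, 95% interval -0.14 to 0.23).

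**Figure D3:**
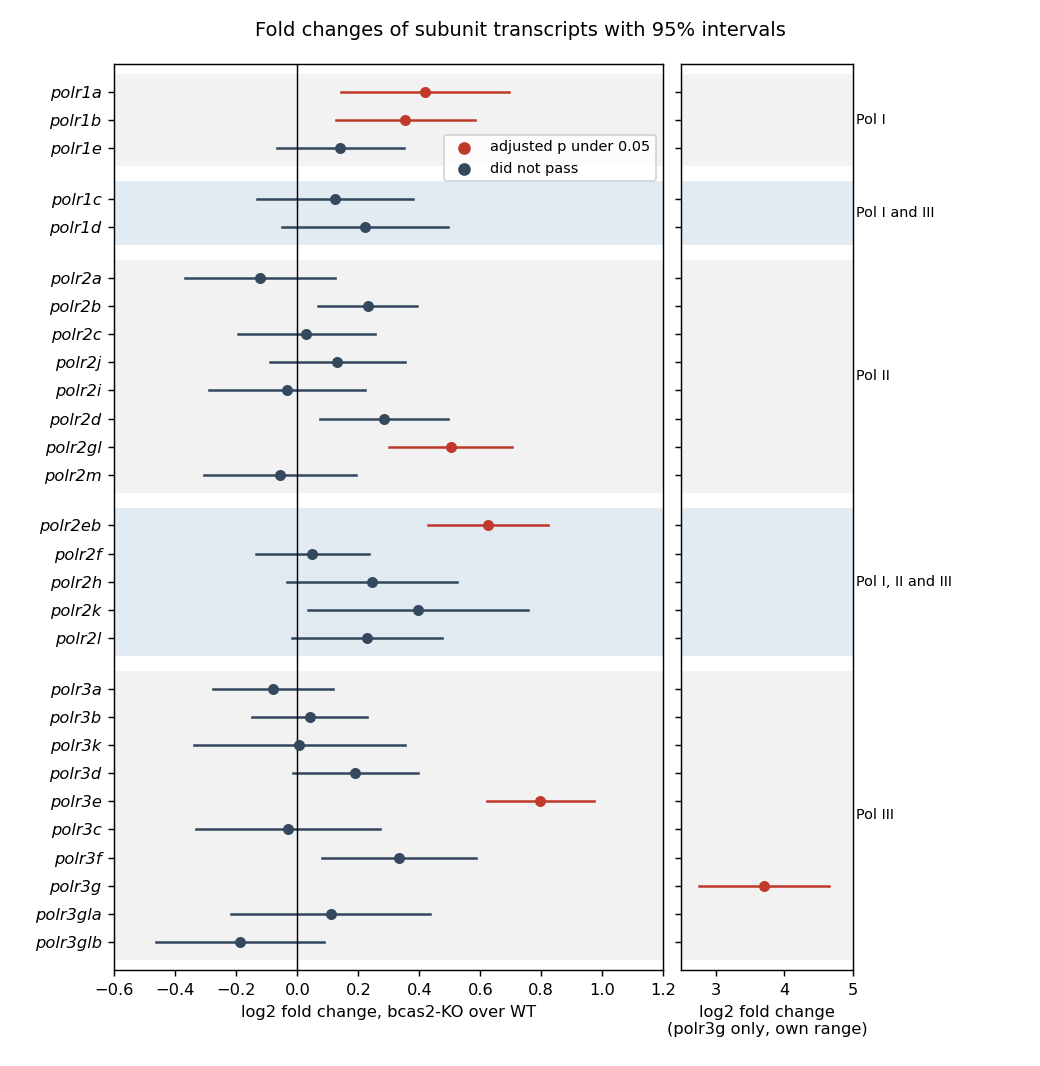
Log2 fold change of each subunit gene named in the text, bcas2-KO over WT, from the edgeR fit with its 95% interval, grouped by polymerase, with genes that passed in red and the others in dark blue. The right panel has its own range and holds polr3g alone, at 3.71. The other genes lie between -0.19 and 0.80, with polr3e the highest among them.

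Polymerase III held both the largest and the lowest fold changes of the 29 genes. Of its 11 specific genes, 2 passed (18.2%), or 1 of 10 without polr3g (10.0%), against 10.6% of all tested genes higher. The median log2 fold change of the 11 genes was 0.046. The genes of the large subunits stayed close to their WT levels. The gene polr3a (ENSDARG00000102569) had 18.9, 20.8 and 19.8 CPM in the bcas2-KO libraries, against 22.4, 20.3 and 20.3 CPM in the WT libraries (log2 fold change -0.081, 95% interval -0.28 to 0.12). The gene polr3b (ENSDARG00000062915) had 24.5, 22.6 and 24.8 CPM in the bcas2-KO libraries, against 23.9, 22.3 and 23.7 CPM in the WT libraries (log2 fold change 0.041, -0.15 to 0.23). Neither passed and both overlapped between genotypes, with intervals that reach from 0.825-fold to 1.08-fold for polr3a and from 0.903-fold to 1.17-fold for polr3b.

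The gene polr3e (ENSDARG00000037358) codes for a subunit of the TFIIF-like heterodimer, which takes part in initiation and termination. It had 67.2, 59.4 and 67.3 CPM in the bcas2-KO libraries, against 38.2, 36.7 and 36.7 CPM in the WT libraries. It was 1.74-fold higher (log2 fold change 0.80, SE 0.078, adjusted p = 0.000277, edgeR), had the smallest p of the 29 genes, and was called under all 15 alternatives. The other gene of that heterodimer, polr3d, had 16.6, 15.8 and 17.0 CPM in the bcas2-KO libraries, against 15.5, 13.8 and 14.03 CPM in the WT libraries. The genotypes did not overlap for polr3d, and it did not pass (log2 fold change 0.19, SE 0.091, adjusted p = 0.172, edgeR).

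A trimer of polymerase III opens the promoter and meets the initiation factor TFIIIB. It is coded by polr3c, polr3f and 1 of the paralogs polr3g, polr3gla and polr3glb. In mammals POLR3G is known from stem cells and early embryos and POLR3GL from differentiated cells. The gene polr3g (ENSDARG00000024687) had 35, 34 and 28 counts in the bcas2-KO libraries, against 5, 2 and 1 counts in the WT libraries. In CPM these were 0.848, 0.841 and 0.861 in the bcas2-KO libraries and 0.0979, 0.0469 and 0.0299 in the WT libraries. In WT libraries 2 and 3 it thus lay under the floor of 3 counts that counting error sets, and in bcas2-KO the 3 libraries held nearly the same level.

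The summed counts of polr3g were 97 in bcas2-KO and 8 in WT, a ratio of 13.5 after scaling, with an exact 95% interval of 6.59 to 32.2 that covers counting error only. The test gave an adjusted p of 0.000663 (log2 fold change 3.71, SE 0.42, edgeR), but a gene that enters the fit through 1 genotype alone had to differ, so this p adds nothing to the counts themselves. The stricter filter on low counts removed the gene. The fitted log2 fold change depends on the handling of such low counts and was 4.33 without WT library 1 and 2.13 with limma on log2(FPKM + 0.1). In the RefSeq gene order the coding neighbours of polr3g are mblac2 and lysmd3, whose log2 fold changes were -0.18 and 0.041 (adjusted p = 0.677 and 0.890, edgeR).

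The other genes of the trimer did not pass. The gene polr3gla had 5.33 ± 0.287 CPM in bcas2-KO and 4.93 ± 0.802 CPM in WT (log2 fold change 0.11). The gene polr3glb had 7.30 ± 0.714 CPM in bcas2-KO and 8.31 ± 0.771 CPM in WT (log2 fold change -0.19, the lowest of the 29 genes). The gene polr3f had 7.63, 8.09 and 7.35 CPM in the bcas2-KO libraries, against 5.66, 6.23 and 6.46 CPM in the WT libraries, without overlap (log2 fold change 0.33, adjusted p = 0.0669, edgeR). The gene polr3c had 5.88 ± 0.501 CPM in bcas2-KO and 5.99 ± 0.723 CPM in WT (log2 fold change -0.031).

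The zinc ribbon gene polr3k, whose product serves RNA cleavage and termination, had a log2 fold change of 0.0065 (95% interval -0.34 to 0.35). Levels of polr3k ranged from 4.28 CPM in bcas2-KO library 3 to 5.91 CPM in bcas2-KO library 2, wider than the range over the WT libraries of 4.52 to 5.59 CPM. The polymerase III subunit gene crcp, which the pattern does not take, had a log2 fold change of 0.091 (adjusted p = 0.746, edgeR).

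Side by side, the median log2 fold change was 0.35 over 3 genes of polymerase I, 0.080 over 8 of polymerase II, 0.046 over 11 of polymerase III, 0.17 over 2 genes shared by I and III and 0.24 over 5 common genes, and without polr3g it was 0.044 for polymerase III. Set against the mean of the WT libraries, the median gene of polymerase I was higher by a log2 difference of 0.35, 0.25 and 0.46 in the bcas2-KO libraries, against 0.095, -0.075 and -0.053 in the WT libraries. For polymerase II these differences were 0.060, 0.12 and 0.047 in bcas2-KO, against 0.013, 0.021 and -0.011 in WT. For polymerase III they were 0.11, 0.12 and 0.092 in bcas2-KO, against 0.093, -0.019 and -0.050 in WT. The polymerase I values were the highest of the 3 in each bcas2-KO library. The differences between the polymerases were not tested, since the genes of an enzyme are not replicates and polymerase I counts only 3 of them here.

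Ratios of genes within a library do not depend on how the libraries are scaled, and were taken on FPKM after the values were known, with no test. The ratio of polr3e to its partner polr3d was 7.33, 6.81 and 7.15 in the bcas2-KO libraries, against 4.46, 4.83 and 4.74 in the WT libraries. That of the common subunits polr2eb and polr2f was 1.53, 1.36 and 1.65 in bcas2-KO, against 1.017, 0.997 and 1.03 in WT. In both pairs the genotypes did not overlap. The ratio of the stalk genes polr2gl and polr2d overlapped, at 0.567, 0.539 and 0.485 in bcas2-KO and 0.465, 0.494 and 0.404 in WT.

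Among the large subunits, polr2a over polr2b was 0.721, 0.791 and 0.584 in the bcas2-KO libraries, against 0.979, 0.886 and 0.814 in the WT libraries, and the genotypes did not overlap. The ratio of polr1a to polr2a was 0.276, 0.232 and 0.347 in bcas2-KO, against 0.213, 0.178 and 0.182 in WT, also without overlap, and its highest value belonged to the library with the lowest polr2a. The ratios of polr1a to polr1b, polr3a to polr3b, polr3a to polr2a, polr3f to polr3c and polr1c to polr1d overlapped. The share of polr3g in the summed FPKM of polr3g, polr3gla and polr3glb was 2.404%, 2.21% and 2.58% in the bcas2-KO libraries, against 0.236%, 0.127% and 0.0897% in the WT libraries, and that sum was 20.1 ± 1.39 FPKM in bcas2-KO and 21.1 ± 2.18 FPKM in WT.

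**Figure D4:**
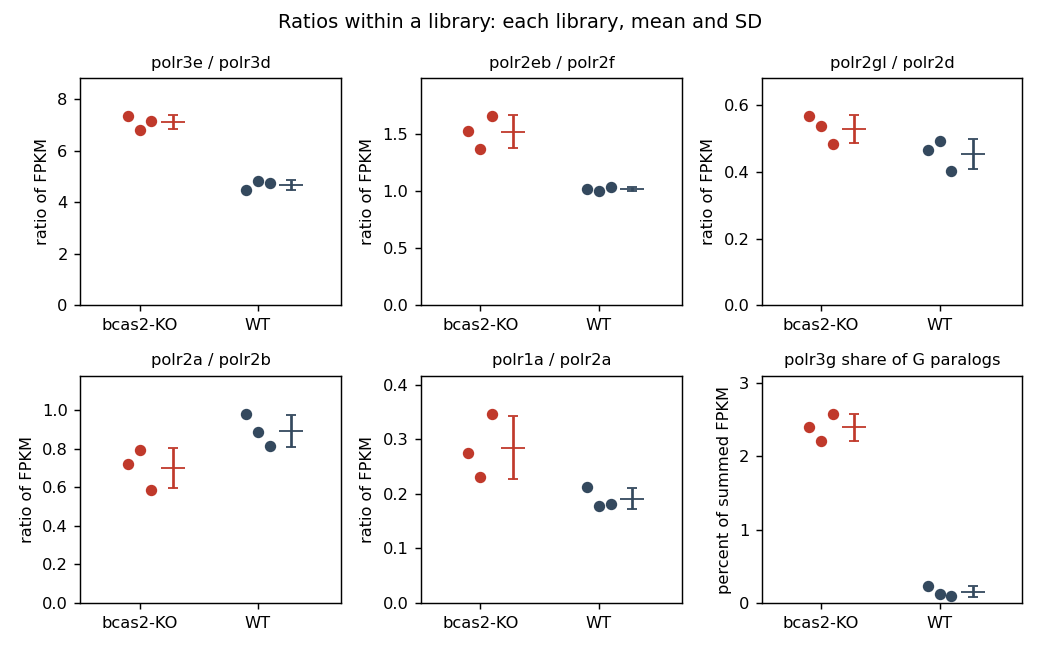
Ratios of FPKM between subunit genes within each library (5 panels) and the percentage of polr3g in the summed FPKM of its paralog group (last panel), for 3 bcas2-KO pools (red) and 3 WT pools (dark blue) with mean and SD. The vertical axes start at 0. Among these panels the groups overlap only for polr2gl over polr2d, and the other ratios that overlapped are not shown. The ratio of polr2a over polr2b is lower in bcas2-KO, at 0.584 to 0.791 against 0.814 to 0.979 in WT.

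Genes that work with the polymerases were described from lists of initiation, elongation and assembly factors. Among polymerase I factors, a list that also holds chromatin genes, 6 of 16 tested rose (37.5%) and 0 fell. Over all tested genes 10.6% were higher and 9.01% lower (median log2 fold change of the list 0.24). With DESeq2, 6 were higher and 0 lower, against 11.5% and 10.2% of all genes. At an unadjusted p under 0.05 (edgeR), 8 were higher and 1 lower, against 17.5% and 16.9%. The gene taf1b, for a subunit of the promoter selectivity factor, had 10.6 ± 1.097 CPM in bcas2-KO and 4.59 ± 0.961 CPM in WT (log2 fold change 1.21, adjusted p = 0.00139, edgeR). The gene ubtfl, related to the nucleolar activator gene ubtf, had 47.5 ± 3.85 CPM in bcas2-KO and 30.2 ± 2.65 CPM in WT (0.66). The gene ubtf itself lay above 0 and did not pass (0.20, adjusted p = 0.108, edgeR), and the same held for rrn3 (0.28) and taf1a (0.25). Of the 16 genes, 2 lay below 0, among them cavin1b (-0.24), and neither passed. Apart from taf1b and ubtfl, the genes of the list that rose were chromatin genes. Among them kdm2aa, baz2ba and baz2a had log2 fold changes of 0.74, 0.51 and 0.32. The call of baz2a was lost without bcas2-KO library 1, 2 or 3 (adjusted p = 0.0972, 0.0692 and 0.0767, edgeR) or WT library 2 or 3 (0.112 and 0.0762), and with upper-quartile scaling (0.0626) or library totals (0.0507). The list had 4 higher genes with each of those 5 libraries left out in turn. Over all genes, 1013 to 1727 were then higher, against 2369 with every library.

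Among polymerase II initiation factors, 11 of 37 rose (29.7%) and 0 fell, against 10.6% and 9.01% of all tested genes (median 0.15). With DESeq2, 11 were higher and 0 lower, against 11.5% and 10.2% of all genes. At an unadjusted p under 0.05 (edgeR), 11 were higher and 1 lower, against 17.5% and 16.9%. The TFIIE gene gtf2e1 had 17.8 ± 0.213 CPM in bcas2-KO and 11.1 ± 1.33 CPM in WT (log2 fold change 0.68, adjusted p = 0.00293, edgeR). The gene taf1, for the largest subunit of TFIID, had a log2 fold change of 0.53, and ccnh, for the cyclin of the TFIIH kinase, 0.72. The genes taf5l (0.60) and taf6l (0.39) code for subunits of the SAGA co-activator rather than TFIID, and the taf6l call was lost without bcas2-KO library 1 (adjusted p = 0.0563, edgeR) and in the 4 libraries low in lens transcripts (0.0564). The count of higher genes was 4 without bcas2-KO library 1 and 5 without WT library 2, where the counts over all genes were 1179 and 1013, against 2369 with every library.

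Among polymerase II elongation and termination factors, 20 of 47 rose (42.6%) and 2 fell (4.26%), against 10.6% and 9.01% of all tested genes (median 0.18). With DESeq2, 20 were higher and 2 lower, against 11.5% and 10.2% of all genes. At an unadjusted p under 0.05 (edgeR), 23 were higher and 3 lower, against 17.5% and 16.9%. The cyclin genes of the kinase P-TEFb, which releases paused polymerase II, rose, with ccnt2a at 72.5 ± 6.24 CPM in bcas2-KO and 29.02 ± 2.64 CPM in WT (log2 fold change 1.32, adjusted p = 6.5e-05, edgeR) and ccnt1 at a log2 fold change of 0.70. The gene hexim1, for an inhibitor of that kinase, had 48.4 ± 3.58 CPM in bcas2-KO and 75.4 ± 5.93 CPM in WT (log2 fold change -0.64, adjusted p = 0.00162, edgeR). The elongation factor gene supt6h (0.62) and aff4 (0.52), the scaffold of the super elongation complex, rose, and the histone chaperone gene ssrp1b fell (-0.61). The ssrp1b paralog ssrp1a went the other way, at 55.8 ± 0.664 CPM in bcas2-KO and 47.7 ± 6.48 CPM in WT. The genotypes did not overlap for ssrp1a, which did not pass (0.22, adjusted p = 0.141, edgeR). The count of higher genes was 12 without bcas2-KO library 1 and 11 without WT library 2. The counts over all genes were then 1179 and 1013, against 2369 with every library. In the 4 libraries low in lens transcripts 14 of the list were higher and 3 lower, against 9.14% and 7.14% of all genes tested there.

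Among polymerase III factors, 3 of 17 rose (17.6%) and 2 fell (11.8%), against 10.6% and 9.01% of all tested genes (median 0.28). With DESeq2, 4 were higher and 2 lower, against 11.5% and 10.2% of all genes. At an unadjusted p under 0.05 (edgeR), 7 were higher and 2 lower, against 17.5% and 16.9%. Among factors of U6-type promoters, snapc4 and brf2 rose, with log2 fold changes of 2.54 and 2.15, while snapc1b (0.12), snapc2 (0.22), snapc3 (0.077) and snapc5 (0.27) of the complex that holds snapc4 did not pass. The gene ssb, for the La protein that binds the ends of polymerase III transcripts, had 96.3 ± 3.78 CPM in bcas2-KO and 45.1 ± 3.49 CPM in WT (log2 fold change 1.096, adjusted p = 6.5e-05, edgeR). The gene brf1a, for the TFIIIB subunit used at transfer RNA genes, had 5.65 ± 0.607 CPM in bcas2-KO and 8.16 ± 0.707 CPM in WT (-0.53, adjusted p = 0.0195, edgeR), and gtf3c3, of the assembly factor TFIIIC, had 11.6 ± 1.06 CPM in bcas2-KO and 18.1 ± 1.52 CPM in WT (-0.64, adjusted p = 0.00381, edgeR). The brf1a paralog brf1b had 6.02 ± 0.784 CPM in bcas2-KO and 4.91 ± 0.684 CPM in WT and did not pass (0.29, adjusted p = 0.202, edgeR). The TFIIIC genes gtf3c2 (0.42), gtf3c4 (0.28), gtf3c5 (0.28) and gtf3c6 (0.066) also lay above 0 and did not pass. The brf1a call was lost without bcas2-KO library 1 or 2 (adjusted p = 0.0665 and 0.0631, edgeR) or WT library 2 or 3 (0.0812 and 0.0614), which left 1 lower gene each time. Over all genes, 717 to 1340 were lower with those libraries left out in turn, against 2013 with every library. Without WT library 1, 5 genes of the list were higher, where 2813 of all genes were, against 2369 with every library.

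Factors that assemble and import the polymerases had a median log2 fold change of 0.036, with 4 of 25 higher and 1 lower. The 5 called genes are 20.0% of the list, near the 19.6% of all tested genes called in either direction. The higher genes were ruvbl1 (1.04), for an ATPase of the R2TP chaperone complex, its partner genes uri1 (0.69) and znhit2 (0.87), and the GTPase gene gpn2 (0.74), and the lower gene was the prefoldin-like pdrg1 (-0.75), each called under all 15 alternatives. Without WT library 1 there were 7 higher and 2 lower genes, where the counts over all genes were 2813 and 2358, against 2369 and 2013 with every library. In the 4 libraries low in lens transcripts 4 were higher and 2 lower, against 9.14% and 7.14% of all genes tested there. The gene of the mitochondrial RNA polymerase, polrmt, had 12.01 ± 0.571 CPM in bcas2-KO and 12.2 ± 0.0165 CPM in WT (log2 fold change -0.025). With cd3eap, twistnb, znrd1, crcp and mitochondrial factors it belongs to a list of 8 tested genes of which edgeR and DESeq2 called 0, with a median of 0.027. At an unadjusted p under 0.05 (edgeR), 1 of the 8 was higher and 0 lower, against 17.5% and 16.9% of all tested genes.

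Of the RNAs made by polymerase III, few were measured. The 7SK RNA gene rn7sk had 0.178 ± 0.0902 CPM in bcas2-KO and 0.320 ± 0.0430 CPM in WT (log2 fold change -0.79, adjusted p = 0.251, edgeR), and the other tested RNA of that list, named BX649540.1 in the file, had -0.18. In this list of 2 tested genes 0 passed with edgeR or DESeq2 and 0 had an unadjusted p under 0.05, with a median of -0.48 at levels under 1 CPM. The yield of polymerase III could not be read from these libraries.

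**Figure D5:**
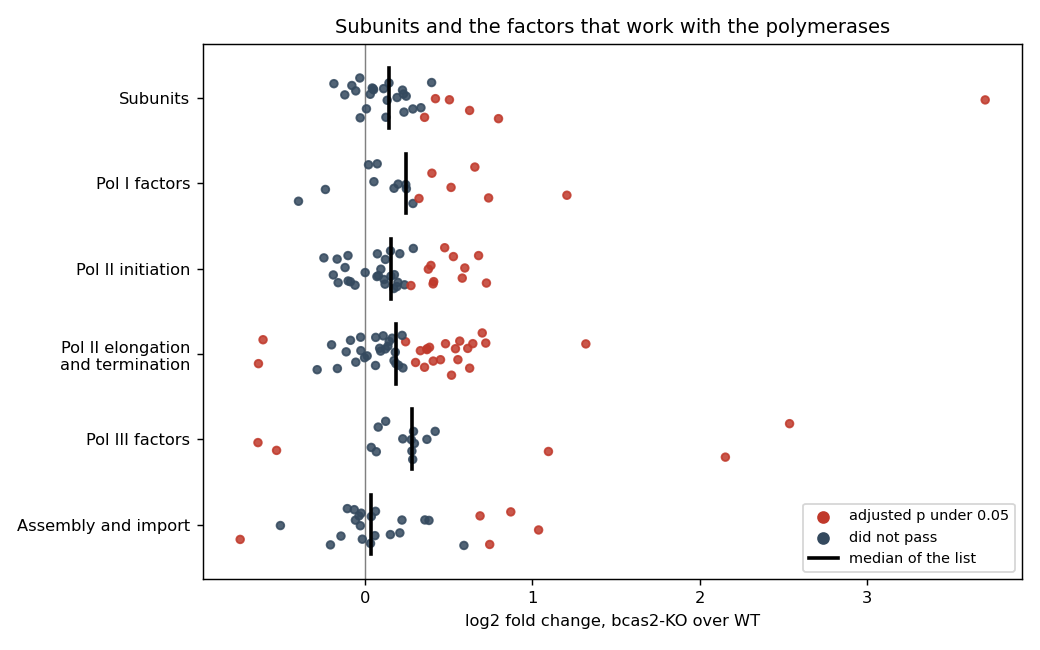
Log2 fold change, bcas2-KO over WT, of the 29 subunit genes and of the tested genes of 5 lists of factors, with genes that passed in red, the others in dark blue and the median of each list as a black bar. Vertical position within a list carries no value. Medians lie between 0.036 for assembly and import and 0.28 for polymerase III factors, with 0.14 for the subunits, and the subunit row holds no red point below 0.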

How the data were processed

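The authors' first deposited table holds raw read counts by Ensembl gene and library. Their second deposited table holds FPKM values of the same genes. The submitters' processing notes name cutadapt 1.15, STAR 2.6.1a, featureCounts 1.6.0, StringTie 1.3.3b, DESeq2 1.22.1 and the build GRCz11, without the role of each. The library kit named in the labels is not a stranded one. No source used here states the strand setting of the counting, its annotation or how reads matching several places were treated, so reads of paralogs (polr3gla, polr3glb and polr3g) and of overlapping genes may be uncertain. In a RefSeq table of another assembly (GRCz12tu), used for names and gene order only, all 29 genes were found, 10 overlap another gene (among them polr3e and polr2gl), and polr3d shares a chromosome with bcas2, 1633 genes apart. No coordinates or sequences are printed.

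From the counts, genes were kept with filterByExpr of edgeR 4.0.16 (minimum count 10), scaled by TMM factors and tested between genotypes with the quasi-likelihood test (robust fit with a genotype term only; two-sided) in R 4.3.3, with Benjamini-Hochberg adjustment over all 22347 genes and a threshold of 0.05. CPM values use the TMM factors, errors are SD over 3 pools, and intervals are 95% from the fit. A floor of 3 counts equals 0.0587 to 0.0923 CPM, and covers counting error only, since reads without molecular identifiers are not independent molecules. Libraries of a genotype differed beyond sampling noise (chi-square per degree of freedom 12.4 to 35.6). The ratio of count to FPKM was constant within a gene after 1 factor per library (coefficient of variation at most 0.0203% over 7169 genes).

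The subunit genes, the factor lists and the alternatives were chosen with earlier results of these data known. Of the 29 subunit genes, 1 enters the counts and medians but its own values are not reported here. Values in every library are given for those that passed, and for both large subunits of each enzyme. The other genes with such values were added after they were seen. Of each factor list, up to 5 genes that passed with the smallest p are named, or 2 where none passed. Genes ssrp1a, ssrp1b, brf1b, ubtf, rrn3, taf1a, cavin1b and the TFIIIC and snapc genes that did not pass were named after their values were seen. So were the other polymerase subunits outside the pattern, with polrmt. Alternatives were DESeq2 1.42.0, limma 3.58.1 on log2(FPKM + 0.1), other scalings, other filters, a replicate block and leaving out libraries. The test was also run on simulated counts with known changes.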

Additional observations from a re-analysis of the deposited data

How the results depend on the processing

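Depth limited polr3g in WT most, at 8 counts over 3 libraries. Of the 6 subunit genes that rose, polr2gl, polr2eb and polr3e were called under all 15 alternatives, and no alternative turned the sign of any of the 6. For polr3g, which entered the fit through the bcas2-KO libraries alone, the sign and the call add nothing. The count of higher subunit genes ranged from 4 to 7 and that of lower ones was 0 throughout. These counts of higher genes include polr3g under every alternative but the stricter filter. Over all genes, leaving out a library in turn gave 1013 to 2813 higher and 717 to 2358 lower genes, against 2369 and 2013, with 795 lower without bcas2-KO library 1, 1340 without bcas2-KO library 2, 1067 without bcas2-KO library 3, 1282 without WT library 3, and 1179 and 1424 higher without bcas2-KO library 1 and 3. Upper-quartile scaling gave 1746 higher and 2625 lower genes. The polymerase II median was 0.019 with upper-quartile factors, 0.12 with library totals and 0.11 without WT library 1 and bcas2-KO library 3 (0.050 to 0.10 with a library left out). The polymerase III median was -0.015 with upper-quartile factors and 0.033 to 0.12 with a library left out. The median over all tested genes also moved with the scaling, from -0.018 in the main fit to -0.079 with upper-quartile factors and 0.021 with library totals. It was -0.017 without WT library 1 and bcas2-KO library 3. The cause was not tested.

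Signs were followed for the subunit genes named here, the factor genes named by smallest p, and ssrp1b, twistnb, crcp and polrmt. The other genes named here, such as the TFIIIC and snapc genes that did not pass, were not followed. Among those followed, signs turned only for some that did not pass. Their log2 fold changes with all libraries ran from -0.18 (BX649540.1) to 0.091 (crcp). With upper-quartile factors these were polr2c (-0.031), polr2f (-0.012), polr3b (-0.020) and polr3k (-0.054), with library totals polr2i (0.0068), polr3c (0.0023) and polrmt (0.015), with the stricter filter polr3k (-0.011), with limma polr3k (-0.023), and in the 4 libraries low in lens transcripts polr2a (0.047, and -0.18 at the lowest with 1 library left out) and polrmt (0.012). With 1 library left out they were polr2c (-0.058), polr2i (0.00085 and 0.015, from -0.072), polr3k (-0.11 and -0.070), polr3c (0.0099, 0.011, 0.045 and 9.5e-05, from -0.12), crcp (-0.016, up to 0.21), polrmt (0.0054, from -0.056) and BX649540.1 (0.18, from -0.49). The replicate numbers gave no pairing that held for all samples. The correlation of deviations was -0.14, 0.37 and 0.013 for numbers 1, 2 and 3, and only number 2 correlated best with its own. With so few pools per genotype these values cannot show whether clutches were shared. With the replicate block 2604 genes were higher and 2318 lower, and 6 subunit genes were higher and 0 lower.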
